A study of Mus musculus with 13 samples.

Results

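The genes described here encode the membrane carriers of sugars, amino acids, monocarboxylates and related small solutes in mouse fibroblast-like cells. They are all genes of the deposited table whose symbol is Slc, one of 10 family numbers (1, 2, 3, 5, 6, 7, 16, 36, 38 or 43), the letter a and a plain number. This rule took 96 of the 23418 genes in the table, and 76 of them passed the filter on low counts, which 15412 genes of the table passed. The other 20 members could not be tested and are given by their levels. The study sequenced bulk RNA of FAPs (the field's term for fibro/adipogenic progenitors, mesenchymal cells that lie between the cells of a tissue) from muscle in 4 libraries numbered 2 to 5, FAPs from lung in 5 libraries numbered 1 to 5, and MEFs (mouse embryonic fibroblasts in the field's use) in 4 libraries numbered 1 to 4. It sought transcripts of FAPs that make satellite cells (muscle stem cells) differentiate, and its parabiosis experiments were not analysed here. The labels give tissue and cell type alone: the sources used here do not give strain, age, sex, genotype, the gate for FAPs or the culture of MEFs.

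Solute carriers set which nutrients a cell can take up or release. Uniporters of family 2 let glucose and related sugars move down their gradient. Families 1, 5, 6 and 38 use the sodium gradient to concentrate amino acids, inositol, taurine, creatine and other solutes, and family 36 uses protons. Most amino acid exchangers are pairs of a heavy chain (family 3), which carries the complex to the surface, and a light chain (part of family 7), which moves the amino acid. Family 16 carries lactate and pyruvate, and some of its members carry thyroid hormone or aromatic amino acids instead. In fibroblasts these carriers feed glycolysis, collagen synthesis, glutathione synthesis and the amino acid sensors of the growth kinase mTORC1.

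The libraries held 41327292 to 44699463 read counts in the muscle FAPs, 28636183 to 35464622 in the lung FAPs and 33756915 to 41466585 in the MEFs. Levels are given as CPM (reads of a gene in every 1e+06 of the library, scaled by the TMM method), and levels of different genes are compared only per kilobase of exon. The labelled cell types were read against their markers. The summed CPM of 6 FAP markers (Pdgfra, Ly6a, Cd34, Dcn, Lum and Pi16) was 25487 to 29480 in the muscle FAPs, 15018 to 28674 in the lung FAPs and 216 to 240 in the MEFs. Markers of other cell types were higher in sum in each lung FAP than in any muscle FAP for 7 of the 9 types listed. No muscle FAP held more than 4.40 CPM of lung epithelium markers or 7.75 of macrophage and blood markers, against 42.5 to 8967 and 34.2 to 667 in the lung FAPs, highest in lung FAP 3. Endothelial markers and those of pericytes and smooth muscle reached at most 24.5 and 115 CPM in the muscle FAPs, against 60.3 to 812 and 387 to 2867 in the lung FAPs, highest in lung FAP 2. In MEFs the markers of pericytes and smooth muscle stood at 3722 to 5979 CPM. Mesothelial markers summed to 1.15 to 26.97 CPM in the muscle FAPs, 361 to 856 in the lung FAPs and 102 to 135 in the MEFs. Muscle FAPs held 1252 to 2210 CPM of tenocyte markers, against 97.8 to 186 in the lung FAPs. Hspa1b, a heat-shock gene that stress induces, stood at 4417 ± 496 CPM in the muscle FAPs, 90.7 ± 19.2 in the lung FAPs and 26.95 ± 7.73 in the MEFs (SD, n = 4, 5 and 4). In bulk RNA, fewer cells of a type and less RNA per cell cannot be told apart, and the part of other cells or of stress in the results below was not tested. Values without lung FAP 2 and 3 leave out the libraries highest in markers of epithelium, blood, endothelium and pericytes, and the other lung FAPs hold such markers too. The labels do not say that libraries of a group came from separate animals or cultures, so p-values measure the spread between these libraries, which may be technical.

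**Figure D1:**
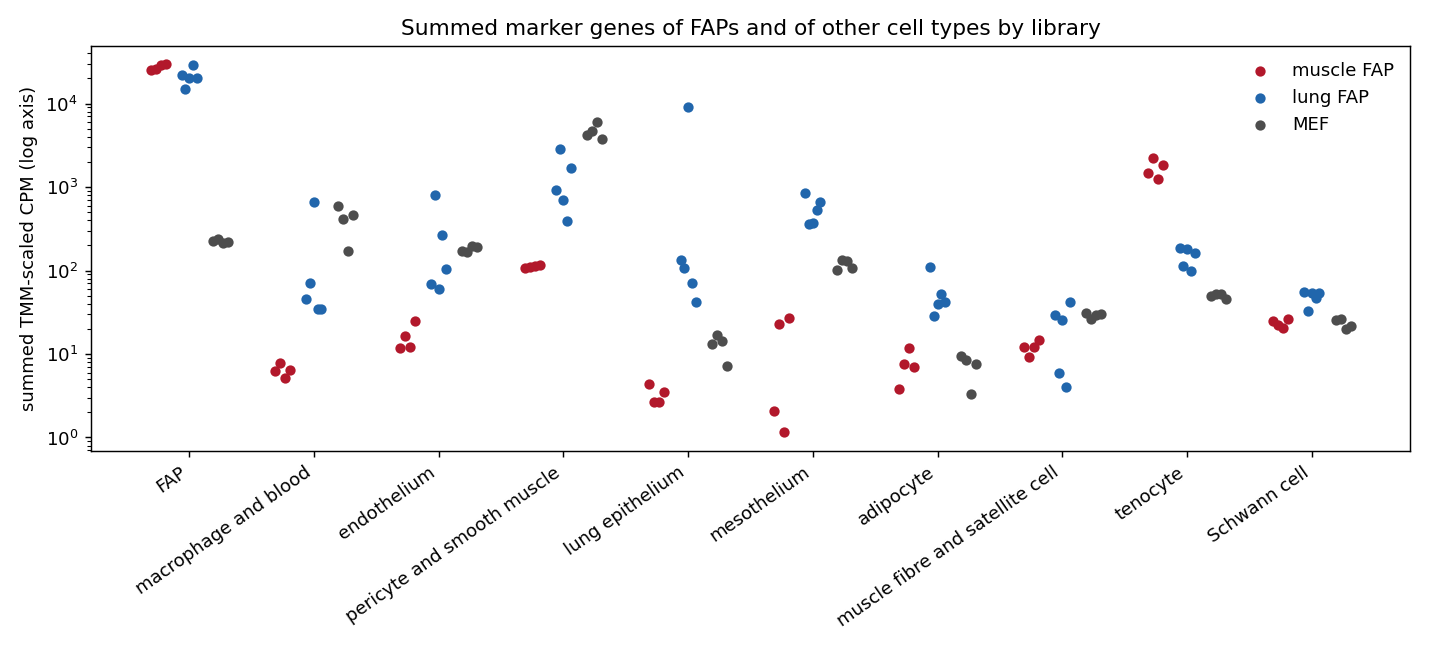
Summed TMM-scaled CPM (log axis) of the marker genes of FAPs and of 9 other cell types, 1 point per library, for muscle FAPs, lung FAPs and MEFs. Lung FAP 3 stands at 8967 CPM of lung epithelium markers, and MEFs lie at 216 to 240 CPM of FAP markers, below every FAP library.

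Between muscle FAPs and lung FAPs, transporter genes moved in both directions in equal number. Of the 76 tested members, 21 passed as higher in the muscle FAPs, 21 passed as lower and 34 missed the threshold (an adjusted p under 0.05 in edgeR's quasi-likelihood test). The share higher was 27.6%, against 23.2% of all genes tested, and the share lower was 27.6%, against 25.0% of all genes. The libraries of both groups did not overlap for 18 members that lay above and 15 that lay below in the muscle FAPs, against 19.0% of all genes in each direction. The median log2 fold change was −0.11 over members and −0.04 over all genes. The split depends on the scaling: with library size as the only scaling, which puts the median of all genes at −0.44, 11 members were higher and 31 lower.

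Against MEFs, more members were higher in FAPs than lower. In muscle FAPs against MEFs, 31 of 76 members were higher (40.8%, against 36.1% of all genes), 22 were lower (28.9%, against 37.3%) and 23 did not pass edgeR's test. With library size as the only scaling, which moves the median of all genes to −0.62, the split was 26 higher and 29 lower. In lung FAPs against MEFs, 33 members were higher (43.4%, against 37.8% of all genes), 26 were lower (34.2%, against 36.6%) and 17 did not pass, and library size scaling gave 29 and 27, with the median of all genes at −0.15. The median log2 fold change of members was 0.24 for muscle FAPs and 0.45 for lung FAPs, against −0.04 and 0.02 over all genes. The 3 comparisons share libraries, so their values stand side by side and are not independent of each other.

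**Figure D2:**
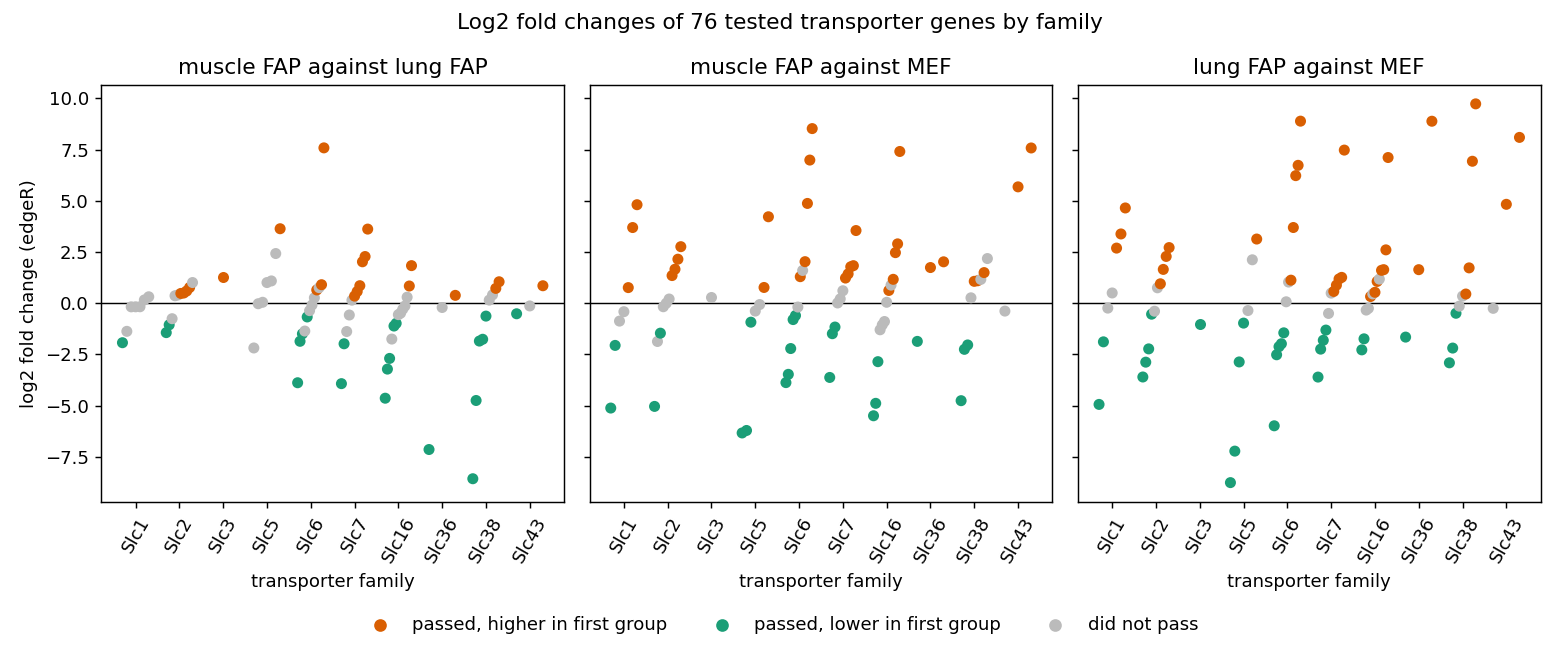
Each point is 1 of the 76 tested transporter genes, placed by family along the x axis and by its edgeR log2 fold change on the y axis, with a panel for each comparison. Coloured points passed at an adjusted p under 0.05. Slc38a5 gives the lowest point of the muscle FAP against lung FAP panel (−8.57) and the highest of the lung FAP against MEF panel (9.74).

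The leucine exchanger was far higher in the muscle FAPs than in the lung FAPs, and its heavy chain was higher by a smaller fold. Slc7a5 is the light chain LAT1 that brings in leucine and other large neutral amino acids. It stood at 74.4, 115, 113 and 81.7 CPM in muscle FAP 2 to 5, 10.4, 5.34, 8.22, 5.82 and 9.24 in lung FAP 1 to 5 and 76.7, 106, 111 and 87.9 in MEF 1 to 4. All muscle FAPs lay above all lung FAPs, and muscle FAPs and MEFs overlapped. The mean was 12.3-fold higher in the muscle FAPs than in the lung FAPs (log2 fold change by edgeR 3.62, SE 0.25, adjusted p = 9.78e-09). Here and below each SE is that of the difference in mean log2 CPM between libraries, not of the edgeR value beside it. Against MEFs lung FAPs were lower (−3.61 by edgeR, SE 0.22, adjusted p = 8.61e-10), and muscle FAPs stood at 0.011 by edgeR, SE 0.20, adjusted p = 0.962. That last value turned to −0.57 (edgeR adjusted p = 0.0102) when libraries were scaled by their size alone. Slc3a2 is the heavy chain CD98 that most light chains need to reach the surface. Its level was 295, 408, 387 and 312 CPM in the muscle FAPs, 176, 142, 142, 121 and 131 in the lung FAPs and 246, 302, 344 and 258 in the MEFs. Again no lung FAP reached any muscle FAP or MEF, with log2 fold change by edgeR 1.30, SE 0.15, adjusted p = 2.95e-06 for muscle FAPs against lung FAPs and −1.01 by edgeR, SE 0.14, adjusted p = 8.38e-06 for lung FAPs against MEFs. The difference between muscle FAPs and MEFs did not pass (0.29 by edgeR, SE 0.16, adjusted p = 0.0911).

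The light chains that differed least between both kinds of FAP were Slc7a6 and Slc7a8. Slc7a6 is y+LAT2, which trades cationic for neutral amino acids. It averaged 104 ± 20.1 CPM in the muscle FAPs, 81.97 ± 10.8 in the lung FAPs and 44.5 ± 0.838 in the MEFs. It passed at a small size in the muscle FAPs against lung FAPs (0.35 by edgeR, SE 0.18, adjusted p = 0.0367), where libraries overlapped and library size scaling gave −0.06 (edgeR adjusted p = 0.701). Slc7a7 is the related y+LAT1. The libraries held 9.79, 7.45, 5.67 and 9.19 CPM in the muscle FAPs and 3.35, 3.82, 4.14, 5.65 and 5.21 in the lung FAPs, barely apart (0.86 by edgeR, SE 0.22, adjusted p = 0.00312). MEFs lay at 2.62 to 3.18 CPM. With library size scaling the edgeR adjusted p between both kinds of FAP was 0.0859. Of the exon bases of Slc7a7, 7% also belong to Oxa1l on the opposite strand. Slc7a8 is LAT2, a second carrier of neutral amino acids. Its mean was 6.402 ± 1.54 CPM in the muscle FAPs, 5.77 ± 2.71 in the lung FAPs and 14.4 ± 4.46 in the MEFs. It was lower than in the MEFs in the muscle FAPs (−1.16 by edgeR, SE 0.32, adjusted p = 0.00960) as well as lung FAPs (−1.31 by edgeR, SE 0.45, adjusted p = 0.00282), with overlap in both.

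Slc7a10 ran the other way. This light chain, Asc-1, exchanges alanine, serine, cysteine and glycine and is known from brain and fat tissue. It stood at 0.466, 1.48, 0.346 and 1.497 CPM in the muscle FAPs, 18.7, 17.4, 7.002, 12.9 and 16.2 in the lung FAPs and 0.0727, 0.0849, 0.136 and 0.0205 in the MEFs. The lowest lung FAP was lung FAP 3, and it still lay above the highest muscle FAP. Lung FAP 1, with the most summed adipocyte markers of the lung FAPs (110 CPM), held the most Slc7a10. Lung FAP 2, with the fewest (28.8 CPM), came next, and the part of fat cells was not tested. The gene was lower in the muscle FAPs than in the lung FAPs (−3.93 by edgeR, SE 0.57, adjusted p = 9.59e-06). It was higher than in the MEFs in the muscle FAPs (3.55 by edgeR, SE 0.59, adjusted p = 8.07e-05) and in the lung FAPs (7.48 by edgeR, SE 0.38, adjusted p = 2.97e-08). Of its exon bases, 17.9% also belong to Lrp3 on the opposite strand, and the strand used in counting is not given in the sources used here, so reads of both genes cannot be told apart there. Lrp3 itself averaged 55.96 CPM in the muscle FAPs, 38.2 in the lung FAPs and 6.94 in the MEFs.

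Slc7a11 is the light chain xCT that takes in cystine in exchange for glutamate and so supplies glutathione synthesis. Its values were 23.8, 43.1, 46.2 and 18.9 CPM in the muscle FAPs, 3.55, 6.11, 15.9, 2.39 and 5.93 in the lung FAPs and 7.49, 9.06, 10.4 and 11.5 in the MEFs. Every muscle FAP lay above every lung FAP and MEF, and lung FAP 3, the library with the most lung epithelium and blood markers, was the highest lung FAP. The difference from lung FAPs was 2.28 by edgeR, SE 0.56, adjusted p = 0.00111, and 2.87 without lung FAP 3 or 3.05 without lung FAP 2 and 3. Muscle FAPs were also higher than MEFs (1.78 by edgeR, SE 0.34, adjusted p = 0.00456). Lung FAPs against MEFs did not pass (−0.50 by edgeR, SE 0.47, adjusted p = 0.330) and stood at −1.09 (edgeR adjusted p = 0.00834) without lung FAP 3.

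Per kilobase of exon, the make-up of the light chains differed between the groups. Slc7a5 made 46.7 ± 4.52% of the summed light chains per kilobase in the muscle FAPs, 7.02 ± 1.67% in the lung FAPs and 64.0 ± 4.61% in the MEFs (SD, n = 4, 5 and 4). These shares do not depend on the scaling of libraries. Slc7a6 made 41.3 ± 4.07%, 60.1 ± 6.26% and 24.5 ± 2.01% in the muscle FAPs, lung FAPs and MEFs, and Slc7a10 made 0.848%, 22.7 ± 6.96% and 0.0915%. The heavy chain stood at 99.3 ± 15.7 CPM per kilobase in the muscle FAPs, 40.3 ± 5.87 in the lung FAPs and 81.5 ± 12.6 in the MEFs. The light chains together reached 55.3 ± 9.73, 29.9 ± 3.05 and 39.96 ± 3.93 CPM per kilobase in the same groups, less than the heavy chain in each of the 13 libraries. Lung FAP 4 came closest, with 31.2 CPM per kilobase of light chains and 34.2 of heavy chain. The remaining light chains, Slc7a9, Slc7a12, Slc7a13 and Slc7a15, and Slc3a1, the heavy chain of kidney and gut, were too low to test. Of the 6 light chains tested, 4 were higher in the muscle FAPs than in the lung FAPs (66.7%, against 23.2% of all genes), 1 was lower (16.7%, against 25.0%) and 1 did not pass. With scaling by library size 2 of the 4, Slc7a6 and Slc7a7, did not pass.

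**Figure D3:**
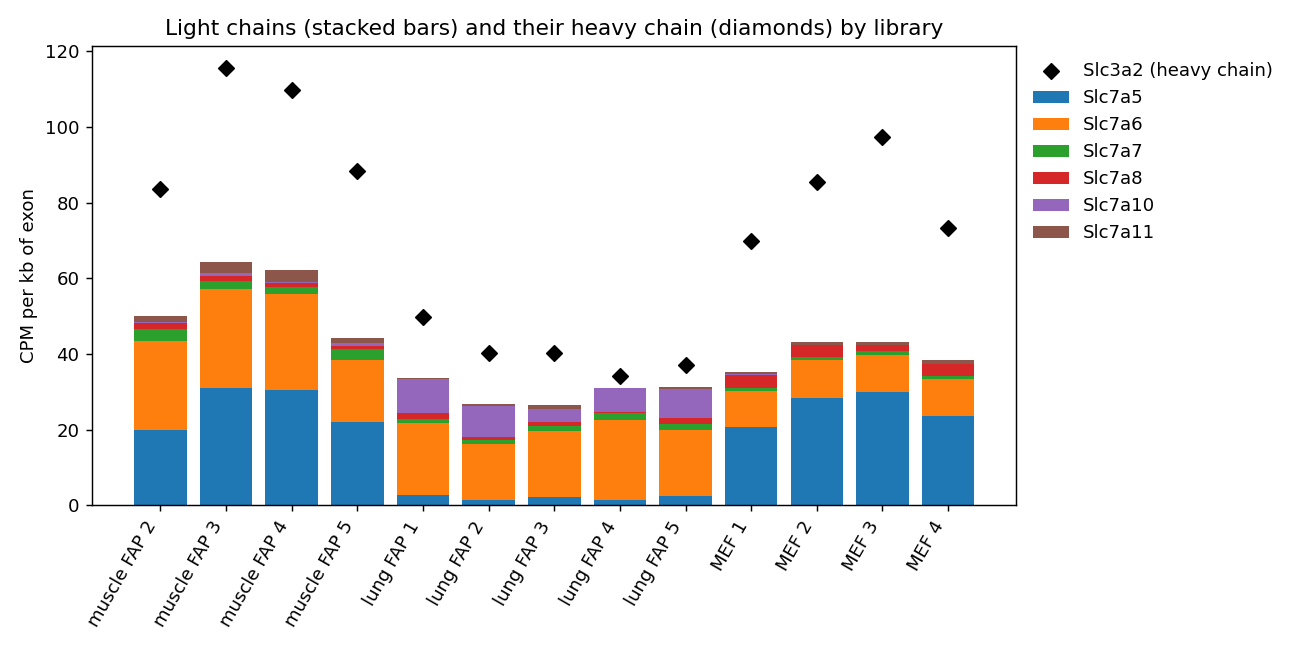
Stacked bars show the light chains Slc7a5, Slc7a6, Slc7a7, Slc7a8, Slc7a10 and Slc7a11 and diamonds the heavy chain Slc3a2, in TMM-scaled CPM per kilobase of exon, for each of the 13 libraries. Slc7a5 fills 40.0 to 49.8% of the summed light chains in the muscle FAPs and 5.04 to 8.38% in the lung FAPs, and the diamond lies above the bar in every library.

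Slc7a11 and Slc7a7 were the only members with a window whose upstream bases hold TTGCATCA. These are the core letters of the amino acid response element that ATF4 is known to bind. Both genes were higher in the muscle FAPs than in the lung FAPs, but Slc7a7 did not pass with library size scaling. Slc3a2, Slc7a1 and Slc16a1, also higher in the muscle FAPs, have windows without these letters. The windows are the 250 bases before the annotated start in RefSeq's table for GRCm38.p6 (mm10), which has windows for 68 of the 96 members. TTGCATCA was searched on both strands and lies in 0.791% of the 32851 windows of the table and in 2 of the 91 windows of members. The whole upstream window of Slc7a11 and the part of that of Slc7a7 around its match are shown 5′ to 3′ in the direction of the gene, with each match to the motif on either strand in capitals.
Slc7a11 (chr3:50443614-50443863, minus strand): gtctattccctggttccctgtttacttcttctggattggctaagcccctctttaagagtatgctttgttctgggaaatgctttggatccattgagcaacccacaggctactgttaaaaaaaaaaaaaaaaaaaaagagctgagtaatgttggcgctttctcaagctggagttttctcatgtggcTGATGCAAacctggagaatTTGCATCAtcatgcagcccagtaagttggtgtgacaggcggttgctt
Slc7a7 (chr14:54417922-54417952, minus strand): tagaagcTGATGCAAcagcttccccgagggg
The Slc7a11 window has 2 matches, 1 on each strand, and the Slc7a7 window has 1. A match is a run of letters and was not measured as a binding site here. Both genes were described with their values known, and the part of the motif was not tested. Genes of the amino acid shortage response, the ATF4 pathway, were read as a list of 17, of which muscle FAPs had 13 higher and 1 lower than lung FAPs (76.5% and 5.88%, against 23.2% and 25.0% of all genes). Scaled by library size alone, 6 were higher and 2 lower. Ddit4, an inhibitor of mTORC1, averaged 154 CPM in the muscle FAPs and 36.4 in the lung FAPs (2.08 by edgeR, SE 0.28, adjusted p = 5.83e-06). Atf4 itself averaged 627 and 349.95 in the same groups (0.84 by edgeR, SE 0.11, adjusted p = 3.40e-05). Stc2, a secreted glycoprotein, was the lower gene (log2 fold change −0.72). Against MEFs the list split, with 8 higher and 6 lower in the muscle FAPs (47.1% and 35.3%, against 36.1% and 37.3% of all genes). In lung FAPs 6 were higher and 7 lower than in the MEFs (35.3% and 41.2%, against 37.8% and 36.6% of all genes). Chac1, which breaks down glutathione, averaged 1.86 CPM in the muscle FAPs, 1.17 in the lung FAPs and 39.5 in the MEFs, with edgeR log2 fold changes of −4.41 and −5.07 against MEFs.

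The 9 oxidative stress genes listed with Slc7a11, which is itself 1 of them, held 5 higher, 1 lower and 3 not passing in the muscle FAPs against lung FAPs, or 5, 3 and 1 when scaled by library size. The shares higher and lower were 55.6% and 11.1%, against 23.2% and 25.0% of all genes. Hmox1, which degrades haem, averaged 4527 CPM in the muscle FAPs, 149 in the lung FAPs and 336 in the MEFs (4.92 by edgeR, SE 0.38, adjusted p = 3.19e-07 for muscle FAPs against lung FAPs). Gclm and Txnrd1, of glutathione and thioredoxin metabolism, were also higher (2.28 and 2.20), while Nqo1, a quinone reductase of the same programme, was lower (−0.71 by edgeR, SE 0.19, adjusted p = 0.0292). Against MEFs 6 were higher and 2 lower in the muscle FAPs (66.7% and 22.2%, against 36.1% and 37.3% of all genes), and 2 higher and 5 lower in the lung FAPs (22.2% and 55.6%, against 37.8% and 36.6%). Hspa1b, given above, was likewise highest in the muscle FAPs, and the part of stress in these values was not tested.

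The carriers of cationic amino acids were led by Slc7a1. Slc7a1 is CAT1, the common carrier of arginine and lysine. The gene stood at 142, 217, 172 and 136 CPM in the muscle FAPs, 50.9, 40.3, 39.5, 38.3 and 36.02 in the lung FAPs and 122, 138, 159.7 and 155 in the MEFs. Lung FAPs lay below all other libraries (log2 fold change by edgeR 2.02, SE 0.18, adjusted p = 4.99e-08 for muscle FAPs against lung FAPs, and −1.81 by edgeR, SE 0.12, adjusted p = 2.03e-08 for lung FAPs against MEFs). Muscle FAPs and MEFs overlapped (0.21 by edgeR, SE 0.18, adjusted p = 0.216), and with library size scaling that comparison stood at −0.37 (edgeR adjusted p = 0.0257). Slc7a2, CAT2, averaged 12.98 ± 5.67, 19.4 ± 7.72 and 8.52 ± 0.591 CPM in the muscle FAPs, lung FAPs and MEFs, and was higher in the lung FAPs than in the MEFs (1.18 by edgeR, SE 0.28, adjusted p = 0.00463). Slc7a3, CAT3, was highest in the MEFs, with 0.387 ± 0.256 CPM in the muscle FAPs, 1.02 ± 0.737 in the lung FAPs and 4.82 ± 0.635 in the MEFs. Slc7a14, a family member of the lysosome, ran the other way, at 5.66 ± 0.848 CPM in the muscle FAPs, 3.803 ± 0.637 in the lung FAPs and 1.58 ± 0.236 in the MEFs. Slc7a4, whose cargo is not settled, was below 4 CPM in every library and lower in the muscle FAPs than in the lung FAPs (−1.98 by edgeR, SE 0.72, adjusted p = 0.00989) with overlap. P2rx6 on the opposite strand shares 13.3% of its exon bases.

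In family 1, FAPs of both tissues held mostly the glutamine exchanger Slc1a5, and MEFs held more of its relative Slc1a4. Slc1a5 is ASCT2, which exchanges glutamine for other neutral amino acids. It lay at 481, 438, 438 and 379.9 CPM in the muscle FAPs, 346, 250.4, 413, 357 and 380.3 in the lung FAPs and 31.3, 40.1, 28.01 and 34.6 in the MEFs. Every FAP library held at least 250 CPM and no MEF more than 40.1 (log2 fold change by edgeR 3.70, SE 0.13, adjusted p = 3.33e-11 for muscle FAPs, and 3.38 by edgeR, SE 0.16, adjusted p = 5.71e-11 for lung FAPs). Muscle FAPs and lung FAPs overlapped and did not pass (0.31 by edgeR, SE 0.14, adjusted p = 0.0798). Slc1a4 is ASCT1, which prefers alanine, serine and cysteine. It stood at 18.4, 17.8, 16.6 and 17.5 CPM in the muscle FAPs, 21.3, 21.04, 20.4, 13.2 and 23.2 in the lung FAPs and 61.5, 73.7, 80.9 and 77.3 in the MEFs. The MEFs lay above all FAPs (−2.06 by edgeR, SE 0.091, adjusted p = 7.87e-09 for muscle FAPs, and −1.89 by edgeR, SE 0.17, adjusted p = 8.05e-09 for lung FAPs). Of the summed CPM per kilobase of both genes, Slc1a5 made 95.9 ± 0.368% in the muscle FAPs, 94.2 ± 1.64% in the lung FAPs and 30.1 ± 4.09% in the MEFs.

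The glutamate carriers of family 1 differed in the group where they were highest. Slc1a3 is GLAST, which clears glutamate around glia and is present in many fibroblasts. Its level was 16.3, 16.5, 16.1 and 11.6 CPM in the muscle FAPs, 42.9, 70.7, 59.6, 55.6 and 59.4 in the lung FAPs and 7.39, 10.2, 10.5 and 7.58 in the MEFs. Lung FAPs were above all other libraries, and muscle FAPs were lower than lung FAPs (−1.93 by edgeR, SE 0.17, adjusted p = 2.98e-07). Slc1a6 is EAAT4 of cerebellar neurons. The libraries held 0.299 to 0.887 CPM in the muscle FAPs, 0.428 to 0.745 in the lung FAPs and 14.1 to 21.6 in the MEFs (−5.12 by edgeR, SE 0.33, adjusted p = 9.01e-10 for muscle FAPs against MEFs). Slc1a7, EAAT5 of the retina, was low but ran the opposite way, at 1.29 to 2.796 CPM in the muscle FAPs, 0.631 to 2.72 in the lung FAPs and 0.0205 to 0.136 in the MEFs. Slc1a1 and Slc1a2, the carriers of neurons and astrocytes, stayed below 2 CPM in every library and passed in no comparison. A gene on the opposite strand, 4430402I18Rik, shares 31.9% of the exon bases of Slc1a1. Of the 7 members, 1 was lower (14.3%, against 25.0% of all genes) and 6 did not pass in the muscle FAPs against lung FAPs.

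**Figure D4:**
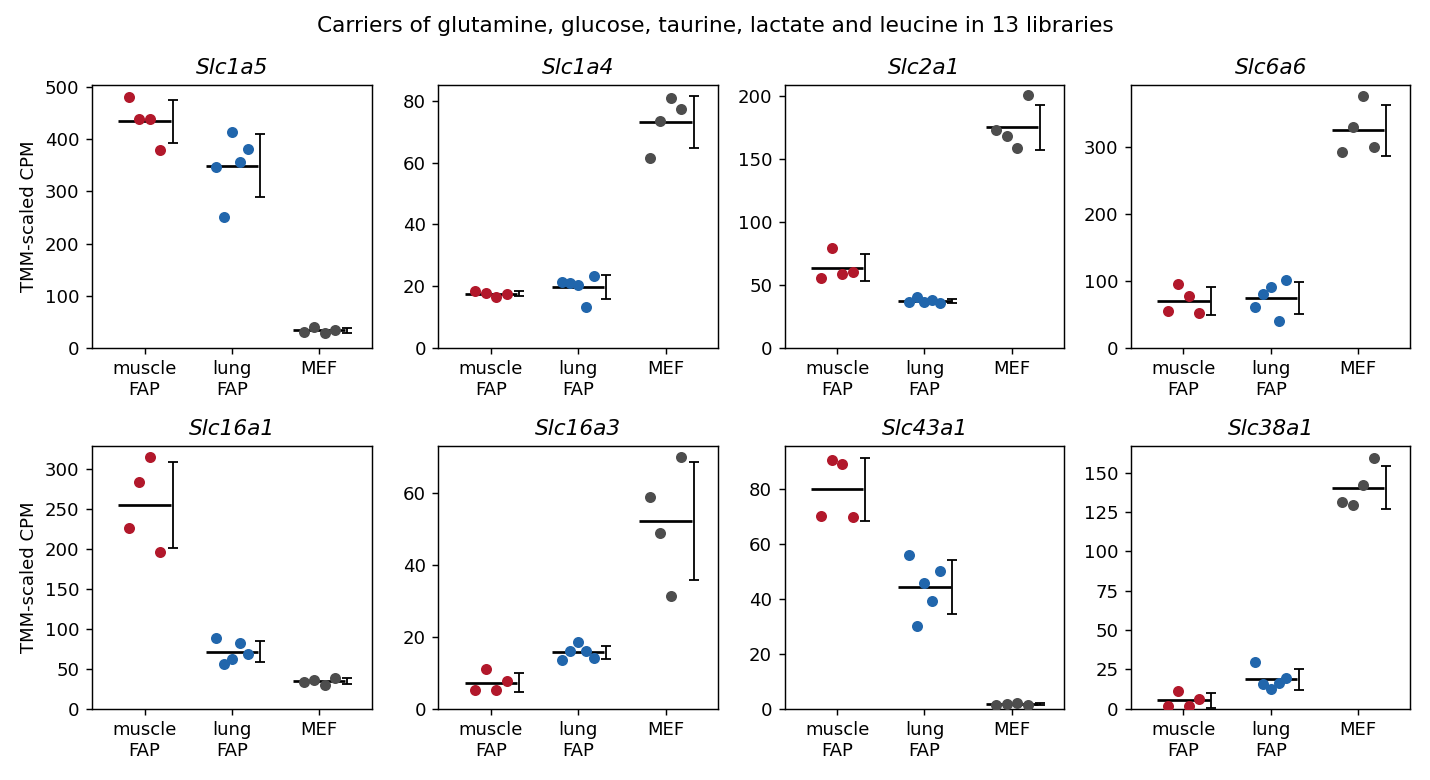
TMM-scaled CPM of 8 carriers in each library (points), with group mean (line) and SD (bar at its right), for muscle FAPs, lung FAPs and MEFs. Slc1a5 stands at 250 to 481 CPM in FAPs and at 28.0 to 40.1 in the MEFs, and Slc1a4, Slc2a1, Slc6a6, Slc16a3 and Slc38a1 are highest in the MEFs.

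Family 38, sodium-coupled carriers of small neutral amino acids, had its most abundant transcript in Slc38a2 and its largest difference in Slc38a5. Slc38a2 is SNAT2, which cells raise when amino acids run short. Its values were 848, 985, 1036 and 757 CPM in the muscle FAPs, 413, 406, 440.4, 496 and 439 in the lung FAPs and 289, 297, 334 and 366 in the MEFs. The groups did not overlap, in the order muscle FAPs, lung FAPs, MEFs (log2 fold change by edgeR 1.05, SE 0.11, adjusted p = 4.99e-06 for muscle FAPs against lung FAPs, 1.495 by edgeR, SE 0.13, adjusted p = 4.84e-08 for muscle FAPs against MEFs, and 0.45 by edgeR, SE 0.094, adjusted p = 0.00334 for lung FAPs against MEFs). It made 62.2 ± 4.58%, 45.5 ± 5.13% and 35.9 ± 2.83% of the family's CPM per kilobase in the muscle FAPs, lung FAPs and MEFs. Slc38a10, a less studied member, was next in both kinds of FAP and in the MEFs, at 32.3%, 29.0% and 24.7% of the family in the muscle FAPs, lung FAPs and MEFs. Its levels were 339 ± 21.96, 205 ± 46.4 and 162 ± 29.6 CPM in the same groups. Its passing difference between muscle FAPs and lung FAPs (0.72 by edgeR, SE 0.15, adjusted p = 0.00147) did not pass when scaled by library size (adjusted p = 0.0511).

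Slc38a5 is SNAT5, which moves glutamine, asparagine and histidine into or out of the cell. The gene stood at 0, 0.148, 0 and 0.120 CPM in the muscle FAPs, 24.1, 39.3, 26.1, 15.1 and 27.9 in the lung FAPs and 0.0727, 0.0425, 0 and 0 in the MEFs. It was present in all 5 lung FAPs and near 0 in the other 8 libraries. The log2 fold change of muscle FAPs against lung FAPs was −8.57 by edgeR, SE 0.57, adjusted p = 6.38e-08, and −9.29 without muscle FAP 3. That of lung FAPs against MEFs was 9.74 by edgeR, SE 0.38, adjusted p = 4.37e-09, and 10.55 without MEF 1. Its highest library, lung FAP 2, was also the one with the most endothelial markers (812 CPM) and pericyte and smooth muscle markers (2867 CPM), whose part was not tested. The value of muscle FAPs against lung FAPs was −8.34 without lung FAP 2 and 3. No annotated gene overlaps it on the X chromosome (chrX:8271133-8280179 in GENCODE's mm10 annotation).

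The other members of family 38 were split between FAPs and MEFs. Slc38a1 is SNAT1, a glutamine carrier of neurons and dividing cells. It lay at 1.66, 11.2, 1.67 and 6.23 CPM in the muscle FAPs, 29.7, 15.6, 12.3, 16.4 and 19.3 in the lung FAPs and 131, 129, 142 and 159 in the MEFs. The groups did not overlap, and muscle FAPs were lower than lung FAPs (−1.85 by edgeR, SE 0.71, adjusted p = 0.00813; −2.56 without muscle FAP 3) and MEFs (−4.76 by edgeR, SE 0.69, adjusted p = 6.27e-06; −5.49 without muscle FAP 3). Slc38a4 is SNAT4 of liver and placenta. On average it stood at 11.3 ± 3.76 CPM in the muscle FAPs, 38.4 ± 7.15 in the lung FAPs and 53.96 ± 6.796 in the MEFs. It was lower in the muscle FAPs than in the lung FAPs (−1.76 by edgeR, SE 0.28, adjusted p = 7.98e-06). Slc38a7 is a carrier that exports glutamine from lysosomes. Its group means were 18.2 ± 1.23, 16.4 ± 2.399 and 74.7 ± 14.6 CPM in the muscle FAPs, lung FAPs and MEFs, highest in the MEFs. Slc38a9 is the lysosomal arginine sensor of mTORC1. The gene averaged 10.4 ± 1.27, 16.1 ± 2.74 and 4.85 ± 0.436 CPM in the muscle FAPs, lung FAPs and MEFs, highest in the lung FAPs. Slc38a11, of unknown cargo, was present at 0.532 to 1.75 CPM in the lung FAPs and had 1 read over all MEFs, a ratio of 199 (exact 95% interval 35.2 to 7893, counting error only). All its reads in the muscle FAPs lay in muscle FAP 3, and the log2 fold change against lung FAPs was −4.75 by edgeR, SE 0.56, adjusted p = 0.000799, or −8.34 without that library. With no read left in the muscle FAPs, the size of that last value is not measured. Slc38a6 passed in none of the 3 comparisons, and of 9 tested members 2 were higher (22.2%, near the 23.2% of all genes), 5 lower (55.6%, against 25.0%) and 2 not passing in the muscle FAPs against lung FAPs.

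In family 36, proton-coupled amino acid carriers, Slc36a2 stood out in the lung FAPs. Slc36a2 is PAT2, which moves glycine, alanine and proline and is known from kidney and as a surface marker of brown fat cells. It stood at 0.437, 0.118, 0.374 and 0.210 CPM in the muscle FAPs, 29.7, 56.3, 40.2, 34.5 and 44.1 in the lung FAPs and 0.170, 0.0849, 0.0227 and 0.0615 in the MEFs. Every lung FAP held far more than any other library. The log2 fold change was −7.15 by edgeR, SE 0.38, adjusted p = 1.59e-09 for muscle FAPs against lung FAPs and 8.89 by edgeR, SE 0.36, adjusted p = 3.40e-11 for lung FAPs against MEFs. The summed adipocyte markers were 3.82 to 11.7 CPM in the muscle FAPs, 28.8 to 110 in the lung FAPs and 3.36 to 9.33 in the MEFs. They were highest in lung FAP 1, which held the least Slc36a2 of the lung FAPs, and the highest Slc36a2 stood in lung FAP 2, the library with the most endothelial and pericyte markers. The part of fat or other cells was not tested, and the value against lung FAPs was −6.97 without lung FAP 2 and 3. Slc36a1 is the PAT1 carrier of lysosomes. It averaged 19.8 ± 2.65 CPM in the muscle FAPs, 22.9 ± 5.46 in the lung FAPs and 72.3 ± 16.8 in the MEFs (−1.87 by edgeR, SE 0.18, adjusted p = 4.52e-07 for muscle FAPs against MEFs, and −1.66 by edgeR, SE 0.22, adjusted p = 6.68e-07 for lung FAPs against MEFs). Slc36a4, a carrier of proline and tryptophan, ran the other way, at 30.8 ± 3.09, 23.6 ± 3.901 and 7.59 ± 0.560 CPM in the same groups.

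**Figure D5:**
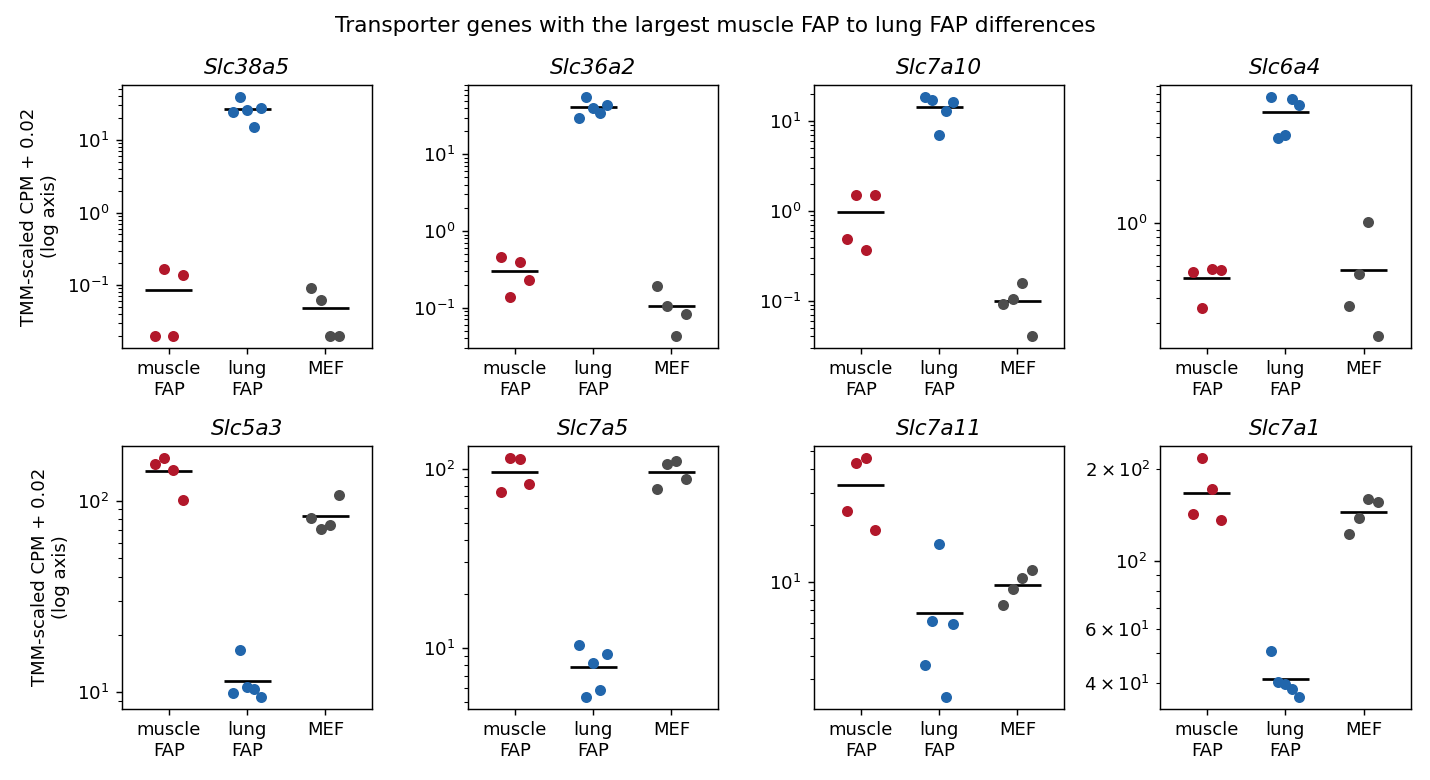
The 8 transporter genes with the largest passing differences between muscle FAPs and lung FAPs among those that average 5 CPM or more in either group, as TMM-scaled CPM + 0.02 on log axes for each library (points) with group means (lines). Slc38a5 lies at no more than 0.148 CPM in the muscle FAPs and at 15.1 to 39.3 in the lung FAPs, and Slc7a5 at 74.4 to 115 CPM in the muscle FAPs and 5.34 to 10.4 in the lung FAPs.

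Family 43 separated FAPs from MEFs. Slc43a3 is a carrier of purine bases. Its level was 723, 815, 768 and 721 CPM in the muscle FAPs, 1098, 879, 1149.6, 1306 and 978 in the lung FAPs and 4.56, 4.37, 3.68 and 3.18 in the MEFs. It was the member with the highest CPM per kilobase in both kinds of FAP (169 in the muscle FAPs and 242 in the lung FAPs, against 0.884 in the MEFs). Every FAP library lay far above every MEF (log2 fold change by edgeR 7.58, SE 0.13, adjusted p = 1.10e-13 for muscle FAPs, and 8.10 by edgeR, SE 0.15, adjusted p = 6.08e-14 for lung FAPs). Muscle FAPs were slightly lower than lung FAPs, without overlap (−0.52 by edgeR, SE 0.11, adjusted p = 0.00513). Slc43a1 is LAT3, which lets leucine and other large neutral amino acids pass down their gradient. The libraries held 70.1, 90.5, 89.1 and 69.9 CPM in the muscle FAPs, 55.9, 30.3, 45.8, 39.1 and 50.01 in the lung FAPs and 1.28, 1.68, 1.98 and 1.27 in the MEFs. All groups were apart, with 0.85 by edgeR, SE 0.19, adjusted p = 0.000651 for muscle FAPs against lung FAPs and 5.68 by edgeR, SE 0.18, adjusted p = 7.97e-12 for muscle FAPs against MEFs. Slc43a2 is LAT4, of the same cargo. Its mean was 13.7 ± 3.099, 15.01 ± 5.97 and 17.9 ± 4.59 CPM in the muscle FAPs, lung FAPs and MEFs, and it passed in none of the 3 comparisons.

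The lactate carriers of family 16 differed in kind. Slc16a1 is MCT1, which moves lactate and pyruvate with a proton in either direction. Its values were 227, 283, 315 and 196 CPM in the muscle FAPs, 88.5, 56.3, 61.6, 82.8 and 68.3 in the lung FAPs and 33.4, 36.2, 28.99 and 38.3 in the MEFs. The groups did not overlap (log2 fold change by edgeR 1.84, SE 0.20, adjusted p = 3.42e-07 for muscle FAPs against lung FAPs, 2.90 by edgeR, SE 0.18, adjusted p = 1.13e-09 for muscle FAPs against MEFs, and 1.06 by edgeR, SE 0.15, adjusted p = 2.55e-05 for lung FAPs against MEFs). Slc16a3, MCT4, the lactate exporter of glycolytic cells, ran in the reverse order, at 5.07, 10.9, 5.27 and 7.63 CPM in the muscle FAPs, 13.6, 15.98, 18.4, 15.99 and 14.1 in the lung FAPs and 58.8, 48.7, 31.4 and 69.9 in the MEFs. It was lower in the muscle FAPs than in the lung FAPs (−1.12 by edgeR, SE 0.27, adjusted p = 0.00181) and MEFs (−2.86 by edgeR, SE 0.36, adjusted p = 1.82e-07), again without overlap. Of the CPM per kilobase of both genes, Slc16a1 made 97.6 ± 0.898% in the muscle FAPs, 84.2 ± 3.65% in the lung FAPs and 45.0 ± 6.07% in the MEFs.

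Some members of family 16 carry hormones, carnitine or aromatic amino acids. Slc16a10 is a carrier that passes aromatic amino acids and thyroid hormone. On average it stood at 25.1 ± 2.56, 13.995 ± 1.35 and 11.2 ± 1.96 CPM in the muscle FAPs, lung FAPs and MEFs, and it was higher in the muscle FAPs than in the lung FAPs (0.84 by edgeR, SE 0.097, adjusted p = 9.12e-05). The list of thyroid hormone genes held 3 higher and 1 not passing of 4 tested in the muscle FAPs against lung FAPs, or 2 and 2 when scaled by library size, and 23.2% of all genes were higher. Dio2, the enzyme that activates thyroid hormone, averaged 291 CPM in the muscle FAPs and 35.1 in the lung FAPs (3.06 by edgeR, SE 0.42, adjusted p = 7.22e-06). Dio3, which inactivates it, averaged 11.1 CPM in the muscle FAPs and 0.238 in the lung FAPs (5.52 by edgeR, SE 0.61, adjusted p = 2.00e-06). Against MEFs 4 were higher in the muscle FAPs, and 3 were higher with 1 not passing in the lung FAPs, beside 36.1% and 37.8% of all genes. Slc16a9 is MCT9, linked to carnitine. The gene stood at 72.1, 43.3, 55.8 and 45.4 CPM in the muscle FAPs, 37.6, 59.1, 38.9, 43.9 and 40.99 in the lung FAPs and 0.242, 0.318, 0.432 and 0.266 in the MEFs. Both kinds of FAP overlapped and stood far above every MEF (7.41 by edgeR, SE 0.23, adjusted p = 1.99e-12 for muscle FAPs, and 7.12 by edgeR, SE 0.20, adjusted p = 2.38e-12 for lung FAPs). Antisense and pseudogene annotations on the opposite strand cover 23.5% of its exon bases.

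Slc16a13, MCT13, whose cargo is less settled, was highest in the MEFs, with 0.641, 0.325, 0.115 and 0.120 CPM in the muscle FAPs, 4.33, 3.77, 2.89, 0.432 and 2.68 in the lung FAPs and 11.03, 14.8, 16.9 and 12.2 in the MEFs. Muscle FAPs were lower than MEFs (−5.50 by edgeR, SE 0.51, adjusted p = 2.45e-06; −6.19 without muscle FAP 2), and lower than lung FAPs with overlap (−3.22 by edgeR, SE 0.76, adjusted p = 0.000511; −3.90 without muscle FAP 2). Its neighbour Slc16a11, a pyruvate carrier of liver, reached 7.57 CPM in lung FAP 3 and at most 0.542 in the other lung FAPs. The comparison of muscle FAPs with lung FAPs stood at −4.64 by edgeR, SE 1.21, adjusted p = 0.0160, and −1.36 (edgeR adjusted p = 0.222) without lung FAP 2 and 3. Slc16a4 and Slc16a7 were lower in the muscle FAPs than in the lung FAPs (−2.70, or −3.61 without muscle FAP 5, and −0.98). Slc16a5, Slc16a8 and Slc16a12, all below 3 CPM, passed in none of the comparisons. Slc16a6, at 2.11 to 4.44 CPM in every library, passed for lung FAPs against MEFs alone (0.53 by edgeR, SE 0.15, adjusted p = 0.0433). Other genes, Amz2 and Arsg on the opposite strand among them, share 23.5% of the exon bases of Slc16a6.

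Slc16a1, higher in the muscle FAPs than in the lung FAPs, and Slc38a5, nearly absent from muscle FAPs, both hold the E-box CACGTG, the letters that MYC and related factors are known to bind, in the 250 bases before their start. The motif reads the same on both strands and lies in 6.021% of all 32851 windows and in 11 of the 91 windows of members. It contains ACGTG, the hypoxia response core, which lies in 16.572% of all windows and 21 windows of members. Among the other members with CACGTG, Slc43a1 and Slc7a14 were higher in the muscle FAPs than in the lung FAPs. Slc1a6, Slc1a7, Slc16a12, Slc36a1 and Slc38a7 did not pass in that comparison, and Slc5a1 and Slc6a3 were not tested. The windows of Slc16a1 and Slc38a5 are given 5′ to 3′ with CACGTG in capitals (GRCm38.p6). Both were picked for their opposite directions with their values known, and the part of the motif was not tested.
Slc16a1 (chr3:104638414-104638663, plus strand): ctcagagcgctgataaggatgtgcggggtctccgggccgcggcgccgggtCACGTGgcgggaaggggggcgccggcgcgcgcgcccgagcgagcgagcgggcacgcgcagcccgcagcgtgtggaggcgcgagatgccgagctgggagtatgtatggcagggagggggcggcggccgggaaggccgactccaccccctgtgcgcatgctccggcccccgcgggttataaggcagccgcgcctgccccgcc
Slc38a5 (chrX:8271131-8271380, plus strand): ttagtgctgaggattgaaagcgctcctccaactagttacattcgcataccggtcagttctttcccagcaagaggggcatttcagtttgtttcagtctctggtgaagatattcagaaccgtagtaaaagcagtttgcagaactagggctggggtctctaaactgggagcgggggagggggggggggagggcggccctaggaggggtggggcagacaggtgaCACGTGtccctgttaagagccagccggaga
TGACTCA, the AP-1 site, was searched on both strands as well and lies in 4.463% of all windows and in 6 windows of members. These belong to Slc2a9, Slc3a1, Slc6a5, Slc6a14, Slc6a17 and Slc7a1. Slc7a1 was higher in the muscle FAPs than in the lung FAPs, Slc2a9 and Slc6a17 did not pass, and the others were not tested.

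The facilitative sugar carriers of family 2 were led by Slc2a1. Slc2a1 is GLUT1, the basal glucose carrier of most cells. It lay at 55.9, 79.5, 58.6 and 60.6 CPM in the muscle FAPs, 36.8, 40.1, 36.3, 37.8 and 35.9 in the lung FAPs and 173, 169, 159 and 201 in the MEFs. The groups did not overlap. Muscle FAPs were higher than lung FAPs (0.77 by edgeR, SE 0.12, adjusted p = 3.61e-05), and both were lower than MEFs (−1.46 by edgeR, SE 0.13, adjusted p = 1.86e-08 for muscle FAPs, and −2.23 by edgeR, SE 0.077, adjusted p = 8.01e-11 for lung FAPs). Its share of the family's CPM per kilobase was 43.2 ± 4.83% in the muscle FAPs, 37.0 ± 4.22% in the lung FAPs and 79.1 ± 1.14% in the MEFs. Slc2a3 is GLUT3, the high-affinity carrier of neurons. It stood at 16.5, 22.7, 17.05 and 15.7 CPM in the muscle FAPs, 16.3, 10.5, 10.01, 9.34 and 13.3 in the lung FAPs and 15.7, 16.01, 12.1 and 18.7 in the MEFs. It passed in the muscle FAPs against lung FAPs (0.60 by edgeR, SE 0.19, adjusted p = 0.0132) with overlap, and not without lung FAP 2 and 3 (0.46, edgeR adjusted p = 0.0822). Slc2a4 is GLUT4, the insulin-responsive carrier of muscle fibres and fat cells. Its group means were 1.24 ± 0.411, 2.09 ± 1.32 and 1.24 ± 0.344 CPM in the muscle FAPs, lung FAPs and MEFs and passed in no comparison.

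Of the less abundant carriers of family 2, 4 were higher in both kinds of FAP than in the MEFs. Slc2a10 is GLUT10, linked to vitamin C in the secretory pathway. The gene averaged 39.04 ± 4.01 CPM in the muscle FAPs, 27.6 ± 5.498 in the lung FAPs and 8.799 ± 1.13 in the MEFs (2.15 by edgeR, SE 0.11, adjusted p = 8.22e-09 for muscle FAPs against MEFs). Slc2a13 is the proton-coupled inositol carrier. It averaged 25.7 ± 3.57, 18.4 ± 3.72 and 3.78 ± 0.820 CPM in the muscle FAPs, lung FAPs and MEFs. Slc2a8 is GLUT8 of inner membranes. Its mean was 17.1 ± 1.51, 12.96 ± 2.68 and 6.72 ± 1.52 CPM in the same groups. Slc2a12, GLUT12, averaged 2.08 ± 1.096 CPM in the muscle FAPs, 4.33 ± 0.499 in the lung FAPs and 0.656 ± 0.0672 in the MEFs. All FAP libraries lay above all MEFs for these 4 genes, and Slc2a12 was lower in the muscle FAPs than in the lung FAPs (−1.06 by edgeR, SE 0.42, adjusted p = 0.0148), which did not pass without muscle FAP 4. Slc2a6, GLUT6, a lysosomal carrier known from blood cells, went the other way, at 0.296 to 0.569 CPM in the muscle FAPs, 0.271 to 2.06 in the lung FAPs and 10.5 to 19.2 in the MEFs (−5.04 by edgeR, SE 0.25, adjusted p = 1.06e-07 for muscle FAPs against MEFs). It was also lower in the muscle FAPs than in the lung FAPs (−1.44 by edgeR, SE 0.48, adjusted p = 0.0113), though not without lung FAP 2 and 3 (−0.95, edgeR adjusted p = 0.0798). Macrophage and blood markers summed to 5.15 to 7.75 CPM in the muscle FAPs, 34.2 to 667 in the lung FAPs and 170 to 585 in the MEFs, and their part in Slc2a6 was not tested. Slc2a9 is a urate carrier. Its level was 2.32 to 6.36 CPM in every library. With overlap, it passed as lower in the lung FAPs than in the MEFs (−0.54 by edgeR, SE 0.21, adjusted p = 0.0381). Slc2a5, the fructose carrier, stayed below 0.5 CPM and had reads in 1 lung FAP, lung FAP 1. Its passing difference of lung FAPs against MEFs (−2.88 by edgeR, SE 0.54, adjusted p = 0.0240) was −6.95 without that library and did not pass without MEF 1, 2 or 3. The −6.95 rests on no lung FAP read, so its size is not measured.

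Of 14 tested genes at the entry and exit of glycolysis, 7 were higher, 2 lower and 5 did not pass in the muscle FAPs against lung FAPs, or 3, 5 and 6 when scaled by library size. The shares higher and lower were 50% and 14.3%, against 23.2% and 25.0% of all genes. Hk2, the inducible hexokinase, averaged 546 CPM in the muscle FAPs and 131 in the lung FAPs (2.05 by edgeR, SE 0.22, adjusted p = 4.14e-07). Ldhb, the lactate dehydrogenase subunit of oxidative tissue, averaged 7.86 and 48.95 (−2.64 by edgeR, SE 0.16, adjusted p = 1.30e-08). Against MEFs 5 were higher and 8 lower in the muscle FAPs (35.7% and 57.1%, against 36.1% and 37.3% of all genes; 3 and 8 by library size), and 4 higher and 9 lower in the lung FAPs (28.6% and 64.3%, against 37.8% and 36.6%). Pkm, pyruvate kinase, averaged 401 CPM in the muscle FAPs, 312 in the lung FAPs and 3985 in the MEFs, and Hk3, the hexokinase of blood cells, was near 0 in the muscle FAPs (−9.12 against MEFs). Of 11 partner and trafficking genes of carriers, 5 were higher and 0 lower in the muscle FAPs against lung FAPs, and the other 6 did not pass, or 3, 4 and 4 when scaled by library size. The share higher was 45.5%, against 23.2% of all genes. Sgk1, a kinase that keeps carriers at the surface, averaged 588 CPM in the muscle FAPs and 128 in the lung FAPs (2.20 by edgeR, SE 0.14, adjusted p = 6.49e-09). Txnip, an arrestin that draws GLUT1 inside, averaged 1007 CPM in the muscle FAPs and 336 in the lung FAPs (1.59 by edgeR, SE 0.14, adjusted p = 8.38e-07). Against MEFs 4 were higher and 4 lower in the muscle FAPs (36.4% each, near the 36.1% and 37.3% of all genes) and 3 higher and 6 lower in the lung FAPs (27.3% and 54.5%, against 37.8% and 36.6%). Txnip averaged 47.5 CPM in the MEFs.

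In family 5, sodium-coupled carriers of sugars, inositol and vitamins, Slc5a3 had the highest level per kilobase in the muscle FAPs and MEFs, and Slc5a6 in the lung FAPs. Slc5a3 stood at 13.03, 1.05 and 7.65 CPM per kilobase in the muscle FAPs, lung FAPs and MEFs, and Slc5a6 at 2.19, 2.13 and 4.17. Slc5a3 is SMIT1, which accumulates inositol when cells meet salt stress. The libraries held 155, 168, 145 and 101 CPM in the muscle FAPs, 9.94, 16.7, 10.6, 10.4 and 9.48 in the lung FAPs and 81.1, 70.7, 74.6 and 107 in the MEFs. Muscle FAPs and MEFs lay above every lung FAP, and muscle FAP 5 overlapped the MEFs. The log2 fold change was 3.64 by edgeR, SE 0.22, adjusted p = 4.60e-09 for muscle FAPs against lung FAPs, −2.87 by edgeR, SE 0.20, adjusted p = 3.69e-09 for lung FAPs against MEFs. Muscle FAPs against MEFs stood at 0.77 by edgeR, SE 0.21, adjusted p = 0.00235, and with library size scaling at 0.19 (edgeR adjusted p = 0.433). Slc5a3 lies at chr16:92058322-92087473 (mm10) within the locus of Mrps6, a mitochondrial ribosome gene on the same strand, and 1.5% of its exon bases are shared. Mrps6 averaged 38.5, 8.11 and 55.9 CPM in the muscle FAPs, lung FAPs and MEFs (2.25 by edgeR, SE 0.18, adjusted p = 4.85e-08 for muscle FAPs against lung FAPs). Nfat5, the factor known to raise Slc5a3, Slc6a6 and Slc6a12 in salty medium, averaged 258 CPM in the muscle FAPs, 129.9 in the lung FAPs and 104 in the MEFs (0.99 by edgeR, SE 0.15, adjusted p = 7.56e-05 for muscle FAPs against lung FAPs).

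The other members of family 5 were low in FAPs. Slc5a6 is the carrier of biotin and pantothenate. On average it stood at 8.75 ± 1.64, 8.48 ± 1.98 and 16.6 ± 3.89 CPM in the muscle FAPs, lung FAPs and MEFs. It was lower than in the MEFs in the muscle FAPs (−0.93 by edgeR, SE 0.22, adjusted p = 0.00132) and in the lung FAPs (−0.97 by edgeR, SE 0.23, adjusted p = 0.000519). Slc5a7, the choline carrier of cholinergic neurons, and Slc5a8, a sodium-coupled monocarboxylate carrier, were at no more than 0.15 CPM in every FAP, and MEFs held 0.738 to 2.61 CPM of Slc5a7 and 3.41 to 4.86 of Slc5a8. Slc5a8 was lower in the muscle FAPs than in the MEFs (−6.22 by edgeR, SE 0.42, adjusted p = 8.47e-06; −7.50 without muscle FAP 5) and in the lung FAPs than in the MEFs (−7.23 by edgeR, SE 0.36, adjusted p = 1.41e-06; −10.26 without lung FAP 3). Its reads in the lung FAPs all lay in lung FAP 3. The −10.26 thus rests on no lung FAP read, and its size is not measured. Slc5a7 had no read in the lung FAPs, at least 79.8-fold lower than in the MEFs, and 2 reads over all muscle FAPs, from which MEFs differed by a ratio of 97.8 (exact 95% interval 26.8 to 812). Of the exon bases of Slc5a2, SGLT2 of the kidney, 20.6% also belong to BC017158 on the opposite strand, so reads cannot be told apart there. Slc5a2 was below 1.1 CPM in every library, with 107, 60 and 7 reads over the muscle FAPs, lung FAPs and MEFs. It was higher in the muscle FAPs than in the MEFs (4.22 by edgeR, SE 0.35, adjusted p = 0.000807; 4.94 without MEF 3) and in the lung FAPs than in the MEFs (3.13 by edgeR, SE 0.72, adjusted p = 0.00573; 3.87 without MEF 3). Slc5a5, the iodide carrier, and Slc5a12 passed in none of the 3 comparisons, and Slc5a12 stood at 3.82 CPM in lung FAP 2 and below 0.5 in every other library.

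Family 6 carries osmolytes, creatine, glycine and transmitters. Slc6a6 is the taurine carrier. Its values were 54.6, 95.5, 77.7 and 51.6 CPM in the muscle FAPs, 60.8, 80.2, 90.2, 39.8 and 101 in the lung FAPs and 292, 329.6, 375 and 300.1 in the MEFs. FAPs of both tissues overlapped (−0.092 by edgeR, SE 0.32, adjusted p = 0.782) and lay below all MEFs (−2.21 by edgeR, SE 0.23, adjusted p = 2.96e-06 for muscle FAPs, and −2.12 by edgeR, SE 0.25, adjusted p = 1.89e-06 for lung FAPs). Slc6a8 is the creatine carrier. The gene stood at 92.4, 102, 106 and 96.003 CPM in the muscle FAPs, 73.6, 52.9, 72.1, 46.2 and 71.6 in the lung FAPs and 162, 190.4, 187 and 151 in the MEFs. The groups did not overlap, with 0.65 by edgeR, SE 0.15, adjusted p = 0.00111 for muscle FAPs against lung FAPs (0.25 and adjusted p = 0.0923 with library size scaling in edgeR) and −0.80 by edgeR, SE 0.092, adjusted p = 0.000133 for muscle FAPs against MEFs. Slc6a9 is GLYT1, the glycine carrier. Its group means were 12.8 ± 1.25, 20.4 ± 8.52 and 19.5 ± 3.03 CPM in the muscle FAPs, lung FAPs and MEFs. Its passing difference between muscle FAPs and lung FAPs (−0.67 by edgeR, SE 0.28, adjusted p = 0.0356) did not hold without lung FAP 2 and 3 (−0.30, edgeR adjusted p = 0.257). Genes on the opposite strand, B4galt2 among them, cover 30.2% of its exon bases.

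Several transmitter and betaine carriers of family 6 were higher in FAPs than in the MEFs, Slc6a4 in the lung FAPs alone. Slc6a2 is the noradrenaline carrier of sympathetic nerves. It lay at 19.98, 15.8, 11.3 and 14.97 CPM in the muscle FAPs, 23.8, 25.7, 15.6, 11.2 and 23.5 in the lung FAPs and 0.0242, 0.0849, 0.0454 and 0 in the MEFs. FAPs of both tissues overlapped, and no MEF reached 0.1 CPM (8.53 by edgeR, SE 0.33, adjusted p = 3.65e-10 for muscle FAPs, or 9.21 without MEF 2, and 8.89 by edgeR, SE 0.37, adjusted p = 1.92e-10 for lung FAPs, or 9.59 without MEF 2). Slc6a13 is GAT2, a carrier of GABA and taurine known from fibroblasts of the brain's coverings. It stood at 13.3, 4.64, 6.997 and 7.39 CPM in the muscle FAPs, 7.28, 0.771, 5.304, 6.78 and 3.76 in the lung FAPs and 0.0242, 0.127, 0.0227 and 0.0615 in the MEFs (6.99 by edgeR, SE 0.43, adjusted p = 8.02e-07 for muscle FAPs against MEFs, or 7.63 without MEF 2). Lung FAP 2 was the lowest FAP and still lay above the MEFs, and lung FAPs were higher than MEFs as well (6.23 by edgeR, SE 0.65, adjusted p = 1.97e-06; 6.87 without MEF 2). Its neighbour Slc6a12, the betaine carrier, averaged 6.91 ± 1.75, 3.69 ± 1.72 and 1.69 ± 0.553 CPM in the muscle FAPs, lung FAPs and MEFs (2.03 by edgeR, SE 0.31, adjusted p = 0.000167 for muscle FAPs against MEFs). Lung FAPs passed as higher than MEFs for Slc6a12 with overlap (1.13 by edgeR, SE 0.40, adjusted p = 0.00968). Slc6a4 is the serotonin carrier. Its level was 0.437, 0.237, 0.461 and 0.449 CPM in the muscle FAPs, 7.56, 3.91, 4.08, 7.31 and 6.62 in the lung FAPs and 0.242, 0.425, 0.9996 and 0.143 in the MEFs. Every lung FAP held more than any other library, with −3.89 by edgeR, SE 0.29, adjusted p = 1.83e-05 for muscle FAPs against lung FAPs and 3.70 by edgeR, SE 0.56, adjusted p = 6.28e-06 for lung FAPs against MEFs, or 4.42 without MEF 3. Muscle FAPs and MEFs overlapped for Slc6a4 and did not pass (−0.19 by edgeR, SE 0.56, adjusted p = 0.747). Slc6a7 is the proline carrier. The gene averaged 2.02 ± 0.447 CPM in the muscle FAPs, 7.36 ± 1.33 in the lung FAPs and 0.0648 ± 0.0566 in the MEFs (−1.86 by edgeR, SE 0.21, adjusted p = 0.000150 for muscle FAPs against lung FAPs, without overlap).

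The neutral amino acid carriers Slc6a15 and Slc6a17, known from neurons, were highest in the MEFs. Slc6a15 averaged 1.23 ± 0.806, 3.47 ± 0.941 and 13.7 ± 1.66 CPM in the muscle FAPs, lung FAPs and MEFs, and Slc6a17 1.09 ± 0.703, 2.81 ± 1.64 and 16.1 ± 6.25 CPM. Muscle FAPs were lower than MEFs for Slc6a15 (−3.48 by edgeR, SE 0.42, adjusted p = 6.19e-07) and for Slc6a17 (−3.88 by edgeR, SE 0.52, adjusted p = 3.81e-05). Slc6a18 and Slc6a19, the neutral amino acid carriers of kidney and gut, lay near or below 1 CPM. Slc6a19 had no read in the 5 lung FAPs and 1.31, 0.532, 0.633 and 0.0898 CPM in the muscle FAPs, at least 35.9-fold higher in the muscle FAPs (edgeR adjusted p = 0.000302), and muscle FAP 2 was the highest of them. Of 16 tested genes of creatine, taurine, glycine and glutamate metabolism, 6 were higher, 5 lower and 5 not passing in the muscle FAPs against lung FAPs (37.5% and 31.2%, against 23.2% and 25.0% of all genes). Cdo1, the enzyme that opens the path from cysteine to taurine, averaged 3.7004 CPM in the muscle FAPs and 71.03 in the lung FAPs (−4.26 by edgeR, SE 0.37, adjusted p = 1.02e-06). Against MEFs 6 were higher and 6 lower in the muscle FAPs (37.5% each, near the 36.1% and 37.3% of all genes; 6 and 9 by library size) and 7 higher and 7 lower in the lung FAPs (43.8% each, against 37.8% and 36.6%). Glul, which makes glutamine, averaged 1579 CPM in the muscle FAPs, 754 in the lung FAPs and 35.7 in the MEFs, with edgeR log2 fold changes of 5.47 and 4.40 against MEFs.

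The genes by which mTORC1 senses amino acids were listed beside the carriers. Of 23, 8 were higher, 5 lower and 10 did not pass in the muscle FAPs against lung FAPs, a split that turned to 7, 13 and 3 when scaled by library size. The shares higher and lower were 34.8% and 21.7%, against 23.2% and 25.0% of all genes. Against MEFs 6 were higher and 12 lower in the muscle FAPs (26.1% and 52.2%, against 36.1% and 37.3% of all genes), or 3 and 17 when scaled by library size. In lung FAPs 4 were higher and 14 lower than in the MEFs (17.4% and 60.9%, against 37.8% and 36.6%), or 3 and 16 when scaled by library size. Fnip2, which works with folliculin at the lysosome, averaged 60.9 CPM in the muscle FAPs and 17.9 in the lung FAPs (1.76 by edgeR, SE 0.22, adjusted p = 1.46e-06). The sestrins, which sense leucine or stress, split. Sesn1 averaged 56.2 CPM in the muscle FAPs, 76.8 in the lung FAPs and 10.9 in the MEFs, and was higher in the muscle FAPs than in the MEFs (2.36 by edgeR, SE 0.11, adjusted p = 4.31e-10). Sesn2 averaged 32.5, 12.6 and 111 CPM in the same groups, and was lower in the lung FAPs than in the MEFs (−3.14 by edgeR, SE 0.17, adjusted p = 4.91e-11).

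Among the 20 members that could not be tested were Slc2a2, Slc2a7, Slc3a1, Slc5a1, Slc5a9, Slc5a10, Slc5a11, Slc6a3, Slc6a5, Slc6a11, Slc6a14, Slc7a9, Slc7a12, Slc7a13, Slc7a15, Slc16a14, Slc36a3, Slc38a3 and Slc38a8. Most are known from kidney, gut, liver or brain. Their highest value in any library was 7.00 CPM, of Slc6a14, an amino acid carrier of airway and gut epithelium, in lung FAP 3. Slc7a12 had no read in any library. Over whole groups, 7 members had no read in the muscle FAPs, 8 in the lung FAPs and 4 in the MEFs. A count of 0 over a group allows a level of up to 0.0220 CPM in the muscle FAPs, 0.0180 in the lung FAPs and 0.0166 in the MEFs (3 counts over the group, counting error only).

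Some members lie side by side in the genome, and neighbours did not always move together. With gaps of at most 200 kb, 20 members fall into 9 groups of neighbours (mm10, GENCODE annotation). Slc43a1 and Slc43a3 (chr2:84838850-84863594 and chr2:84936579-84958509) were both higher in both kinds of FAP than in the MEFs, and so were Slc6a13 and Slc6a12 (chr6:121300227-121337733 and chr6:121343076-121365775). Slc38a1 and Slc38a2 (chr15:96571418-96642913 and chr15:96687392-96699730) moved in opposite directions, lower and higher in the muscle FAPs than in the lung FAPs. Slc36a2 (chr11:55158470-55185077) was high in the lung FAPs, while Slc36a1 (chr11:55204350-55236330) was highest in the MEFs and the last of that group, Slc36a3, was not tested. Slc16a11 and Slc16a13 (chr11:70212752-70216417 and chr11:70216789-70221064) were both lower in the muscle FAPs than in the MEFs (−4.89, or −5.63 without muscle FAP 3, and −5.50).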

How the data were processed

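Bulk RNA of 13 libraries in 3 groups was analysed: FAPs from muscle (4), FAPs from lung (5) and MEFs (4). The values are whole read counts per gene symbol, deposited by the authors as 1 table with a column for each library and 0 further sample columns; per the submitters' processing notes, Bowtie2 2.1.0.0, HTSeq, edgeR and the build mm10 were used. The annotation and the strand setting of counting are not given in the sources used.

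Counts were kept by filterByExpr, scaled by TMM and tested in 1 fit of all 13 libraries with edgeR 4.0.16 (R 4.3.3), by robust quasi-likelihood tests with Benjamini-Hochberg adjustment over all 15412 genes tested and a threshold of 0.05. SEs come from log2 CPM with a prior count of 2, not from the edgeR fit. For genes near 0 in a group they can be too small for the edgeR value beside them. Slc38a11, with an SE of 0.56, moved from −4.75 to −8.34 in muscle FAPs against lung FAPs without muscle FAP 3. No muscle FAP read was left in that fit, so the size of −8.34 is not measured. Exon lengths and positions are GENCODE M21's, and upstream windows are RefSeq's GRCm38.p6 table. The scripts were tested on simulated data with known changes. The lowest chi-square between libraries of a group was 22.2 per degree of freedom, so no pair of libraries looked like copies.

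The members, gene lists and tests were chosen with earlier results of these data known. Genes given in full were the 8 passing members with the largest changes between muscle FAPs and lung FAPs and the 6 in each comparison with MEFs (at least 5 CPM on average in the higher group), the member of each family with the highest mean CPM, not per kilobase, and 12 well-known members; in each pathway list, the passing gene with the largest change under the same minimum was named. Atf4, Stc2, Gclm, Txnrd1, Hk2 and Pkm, and the members outside that rule, were described after their values were seen. Hspa1b, Lrp3, Mrps6 and Nfat5 were not picked by that rule either. Some members are counted but not reported by name here. Alternatives were other scalings, filters, tests (DESeq2 1.42.0, limma 3.58.1 voom, glmTreat), compared groups alone, a replicate block and leaving out libraries.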

Additional observations from a re-analysis of the deposited data

Results flagged for a closer look

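Among the 25 transporter genes given in full, 75 groups of libraries were searched for 1 library far from the others by Dixon's criterion, which flags about 1 group in 20 by chance, and 3 were found. Slc6a4, the serotonin carrier, stood at 0.237 CPM in muscle FAP 3, against 0.437 to 0.461 in the other muscle FAPs. Slc5a3, the inositol carrier, stood at 16.7 CPM in lung FAP 2, against 9.48 to 10.6 in the other lung FAPs. Slc7a11, the cystine carrier, stood at 15.9 CPM in lung FAP 3, against 2.39 to 6.11 in the other lung FAPs.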

How the results depend on the processing

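The counts of members higher and lower in muscle FAPs against lung FAPs, 21 and 21, became 11 and 31 when libraries were scaled by size alone, and 7 and 10 in a test against a 2-fold change (glmTreat). The counts against MEFs moved by no more than 1.5 times under every alternative run. Under size scaling muscle FAPs against MEFs turned to −0.57 for Slc7a5 (edgeR adjusted p = 0.0102) and −0.37 for Slc7a1 (adjusted p = 0.0257). Leaving out 1 library at a time gave 17 to 21 higher and 20 to 24 lower for muscle FAPs against lung FAPs, 29 to 31 and 20 to 22 for muscle FAPs against MEFs, and 31 to 33 and 24 to 27 for lung FAPs against MEFs. Of 42 members called between muscle FAPs and lung FAPs, 32 kept the call in each of these fits.

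With the library number as a replicate block, 16 members were higher and 19 lower in muscle FAPs against lung FAPs (17 and 18 in the same libraries without the block, a setting added after seeing the data), 31 and 25 in muscle FAPs against MEFs (32 and 25) and 28 and 24 in lung FAPs against MEFs (30 and 24). Same-numbered libraries correlated at −0.0484 to 0.0612 in their deviations from the group means. Such values cannot tell whether libraries of the same number share an animal or a batch, which the labels do not give.

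Depth limits the rare members: levels under 3 counts over a group could not be told from 0.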
